A study of Mus musculus with 4 samples.

Results

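Transcripts of 10 genes that control entry into the cell cycle were followed in haematopoietic stem cells (HSC) sorted singly from mouse bone marrow: the D-type cyclins Ccnd1, Ccnd2 and Ccnd3, the cyclin-dependent kinases Cdk4 and Cdk6, the kinase inhibitors Cdkn1a, Cdkn1b, Cdkn1c and Cdkn2c, and the pocket protein gene Rbl1. They were taken by symbol from 24411 gene rows, and all 10 had unique molecular identifiers (UMIs) in each of 4 libraries. The libraries were 2 from Mat KO mice (44 and 48 kept cells in replicates 1 and 2) and 2 from wild-type (WT) mice (48 kept cells each), a kept cell having at least 1000 detected genes. The title of the study names small nucleolar RNAs of the imprinted Dlk1-Gtl2 locus and the self-renewal of long-term stem cells. The labels give the genotype as Mat KO without naming the deleted interval, and the age, sex, strain and number of animals per library are not stated there. The p-values thus reflect the spread among libraries alone, and that spread may be technical.

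D-type cyclins bind the kinases Cdk4 and Cdk6, and the active pairs phosphorylate the retinoblastoma family of pocket proteins, which releases E2F factors and lets a cell pass from G1 into S phase. Inhibitors of the INK4 class, such as the product of Cdkn2c, bind the kinases Cdk4 and Cdk6, whereas those of the CIP/KIP class, encoded by Cdkn1a, Cdkn1b and Cdkn1c, bind cyclin and kinase together. Long-term HSC are mostly quiescent in adult marrow, and Cdkn1c in particular is known for its part in keeping mouse HSC out of cycle. Top2a (a topoisomerase of the S and G2 phases), Mki67 (a protein of cycling cells) and Mcm2 (a subunit of the replicative helicase) served here as markers of cycling: the UMIs of these 3 genes were summed in each cell.

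Library totals over kept cells were 1900319 and 1768647 UMIs for Mat KO replicates 1 and 2, against 3183279 and 3253608 UMIs for the WT replicates, and the median cell had 33612.5 and 27845 UMIs in the Mat KO libraries, against 53092.5 and 51437 UMIs in the WT libraries. Of the locus's noncoding RNAs, Meg3 had 18.4 and 32.8 counts scaled to the library total (CPM) in the Mat KO libraries, against 52.8 and 47 CPM in the WT libraries, Rian was seen in Mat KO replicate 2 alone (25 UMIs) and Mirg in WT replicate 1 alone (47 UMIs). Whether their 3' ends lie in the deleted part is not given, so these values do not check the labels. All 17 genes of a long-term HSC marker list had UMIs in every library, and their median share of a cell's UMIs was 0.214% to 0.257% across libraries. Some cells carried other lineage programmes: 162 of 188 cells had under 1% of their UMIs in each of the granulocyte or monocyte, B-lymphoid and erythroid lists and are called lineage-low, 31 and 44 of them in the Mat KO libraries and 44 and 43 in the WT libraries. Mat KO replicate 1 stood apart, with 3.68% of its UMIs in the granulocyte or monocyte list, against 0.372% to 0.733% in the other 3 libraries. The 4 libraries used the same well barcodes, 44 of which were kept in all 4, so a barcode shared by libraries is not a shared cell.

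The sequences around the starts of Cdk4, Rbl1 and Cdkn2c are shown. Cdk4 and Rbl1 had a higher level in cells rich in cycling markers in every library at both limits used for that class. Cdkn2c is shown because its few UMIs lay almost wholly in such cells, which is not a test of a difference. Each sequence runs from 250 bases before the annotated start to 50 bases after it. All are printed 5' to 3' on the gene's strand, from RefSeq (GRCm38.p6). Capitals mark matches to an E2F motif (TTTNNCGC) or to an E-box (CACGTG), searched on both strands. The Cdk4 window is chr10:127063285-127063584 on the plus strand, the Rbl1 window chr2:157204485-157204784 on the minus strand, and the windows of the 2 Cdkn2c starts are chr4:109666707-109667006 and chr4:109665323-109665622 on the minus strand.
Cdk4: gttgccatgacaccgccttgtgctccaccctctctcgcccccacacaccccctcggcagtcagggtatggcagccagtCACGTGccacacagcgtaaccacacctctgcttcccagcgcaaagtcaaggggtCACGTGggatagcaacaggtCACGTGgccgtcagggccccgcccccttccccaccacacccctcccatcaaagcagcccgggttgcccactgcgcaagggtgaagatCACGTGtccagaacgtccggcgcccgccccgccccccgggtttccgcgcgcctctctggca
Rbl1: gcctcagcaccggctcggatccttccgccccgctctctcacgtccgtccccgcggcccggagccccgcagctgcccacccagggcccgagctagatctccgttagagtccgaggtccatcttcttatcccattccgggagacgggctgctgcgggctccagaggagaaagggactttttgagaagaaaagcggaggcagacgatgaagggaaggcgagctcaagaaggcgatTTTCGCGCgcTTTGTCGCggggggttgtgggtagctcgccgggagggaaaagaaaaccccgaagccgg
Cdkn2c, upstream start: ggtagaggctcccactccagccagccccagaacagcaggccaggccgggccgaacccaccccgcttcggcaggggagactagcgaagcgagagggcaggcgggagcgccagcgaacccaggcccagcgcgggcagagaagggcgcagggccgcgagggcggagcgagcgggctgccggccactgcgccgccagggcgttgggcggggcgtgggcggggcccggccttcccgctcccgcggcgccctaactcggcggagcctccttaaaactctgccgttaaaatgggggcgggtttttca
Cdkn2c, downstream start: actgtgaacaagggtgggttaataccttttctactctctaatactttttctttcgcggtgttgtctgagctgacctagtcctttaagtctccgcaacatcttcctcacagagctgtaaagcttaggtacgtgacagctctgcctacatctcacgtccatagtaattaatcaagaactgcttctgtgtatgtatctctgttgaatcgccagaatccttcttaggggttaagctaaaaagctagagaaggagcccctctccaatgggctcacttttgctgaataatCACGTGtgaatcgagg

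Rbl1 held 2 E2F matches, at 18 and 8 bases before its start, and Cdk4 held 4 E-boxes, at 172, 118, 98 and 11 bases before its start. The downstream Cdkn2c window held 1 E-box, and the upstream one neither motif. Over all 32851 mouse windows of the same length, 5.17% held the E2F motif and 7.15% the E-box, and TTTGAA, the core of the cell cycle homology region, was in 17.9% and in none of the 10 windows listed for 7 of the members. Among those windows only that of Cdk6 held both motifs, with 1 E2F match 198 bases and 1 E-box 220 bases before its start. These matches describe letters and say nothing of binding.

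The first question was how abundant each member was. UMIs are read from the 3' end of a transcript, so they are not scaled by its length, and the levels in CPM order captured tags and not protein. Ccnd2 and Cdkn1a supplied most of the signal. Ccnd2 had 450.5 and 597 CPM in Mat KO replicates 1 and 2, against 698 and 673 CPM in WT replicates 1 and 2. Cdkn1a, the p53 target that encodes p21, had 356 and 857 CPM in the Mat KO libraries, against 419 and 463 CPM in the WT libraries. Mat KO replicate 2 was the highest of the 4 libraries for Cdkn1a and Mat KO replicate 1 the lowest, so the genotypes overlapped, whereas both Mat KO libraries lay below both WT libraries for Ccnd2.

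Ccnd2 made up 86.2% and 94.2% of D cyclin UMIs in the Mat KO libraries, against 89.4% and 89.7% in the WT libraries. Cdkn1a made up 71.6% and 92.8% of the UMIs of the 4 inhibitors in the Mat KO libraries, against 79.0% and 91.0% in the WT libraries. One D cyclin and one inhibitor thus dominated in every library. Thinning each cell to 8900 UMIs (169 cells deep enough, 19 left out) put at least 1 D cyclin UMI together with at least 1 inhibitor UMI in 129 cells, 76.3% of them. Of the 36 thinned cells with Ccnd1, 32 also held Ccnd2, and of the 25 with Ccnd3, 20 did.

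Cdk4 followed in order, with 151 and 109.7 CPM in the Mat KO libraries, against 205 and 224 CPM in the WT libraries. The other kinase gene, Cdk6, was near the limit of detection, with 2.10 and 5.09 CPM in the Mat KO libraries, against 24.8 and 2.46 CPM in the WT libraries. The WT replicate 1 value of Cdk6 came largely from few cells: 44 and 21 of its 79 UMIs were in 2 lineage-low cells.

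The remaining members lay below 100 CPM. Rbl1, which encodes the pocket protein p107, had 31.6 and 59.4 CPM in the Mat KO libraries, against 60.6 and 98.7 CPM in the WT libraries. Ccnd1 had 37.4 and 10.7 CPM in the Mat KO libraries, against 58.4 and 59.3 CPM in the WT libraries. Both genes were lower in both Mat KO libraries than in either WT library, by a narrow margin for Rbl1. Ccnd3 had 34.7 and 26.0 CPM in the Mat KO libraries, against 24.2 and 17.8 CPM in the WT libraries, and Cdkn2c, which encodes the INK4 inhibitor p18, had 28.4 and 11.9 CPM in the Mat KO libraries, against 4.08 and 9.53 CPM in the WT libraries. These 2 genes were higher in both Mat KO libraries. Cdkn1b (p27) had 74.7 and 37.9 CPM in the Mat KO libraries, against 71.0 and 25.2 CPM in the WT libraries, and Cdkn1c (p57, itself maternally expressed at another imprinted locus) had 37.9 and 16.4 CPM in the Mat KO libraries, against 36.1 and 10.8 CPM in the WT libraries, with wide overlap for both. By the mean over the 4 libraries the order was Ccnd2 (605 ± 112 CPM), Cdkn1a (524 ± 227), Cdk4 (172 ± 52.1), Rbl1 (62.6 ± 27.6), Cdkn1b (52.2 ± 24.5), Ccnd1 (41.5 ± 22.9), Ccnd3 (25.7 ± 6.97), Cdkn1c (25.3 ± 13.7), Cdkn2c (13.5 ± 10.5) and Cdk6 (8.62 ± 10.9; SD, n = 4 libraries). Neighbours in this order differed by less than the sum of their SDs, except that Cdk4 differed by more from both Cdkn1a and Rbl1.

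**Figure D1:**
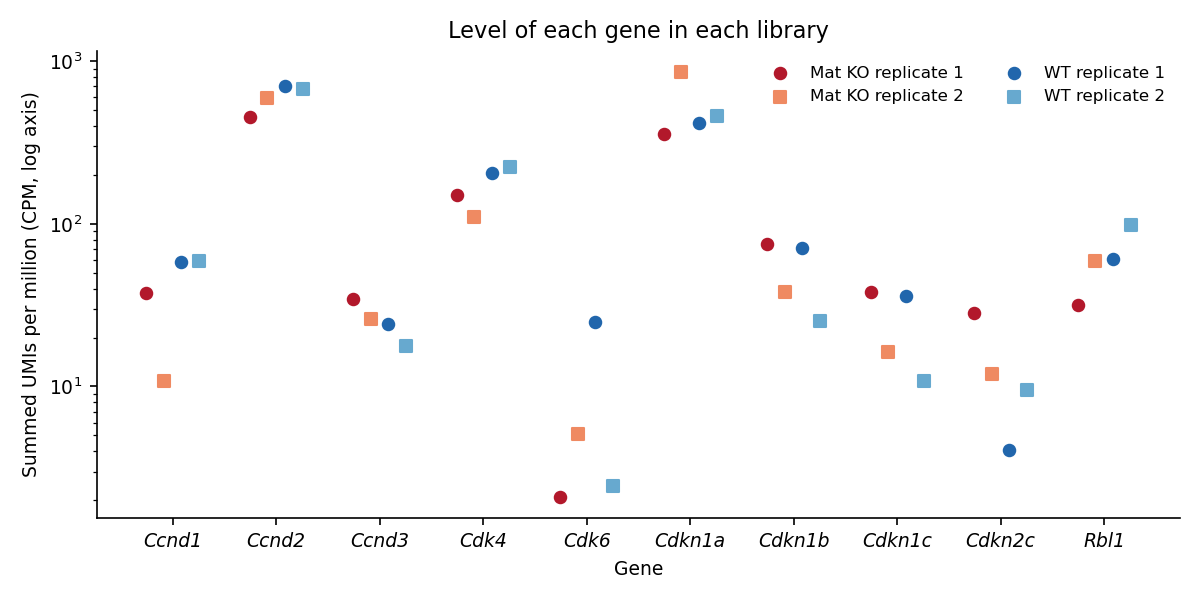
Level of each gene in each library, as CPM of the summed UMIs on a log axis; red and orange points are Mat KO libraries and blue points WT libraries, with circles for replicate 1 and squares for replicate 2. Ccnd2 lies between 450.5 and 698 CPM in all 4 libraries, and Cdk6 reaches 24.8 CPM in WT replicate 1 alone.

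The 48 barcodes per library that held no cell carried 721 and 769 UMIs in all in the Mat KO libraries, against 1293 and 1164 in the WT libraries, of which Ccnd2 supplied 1, 0, 1 and 2 and Cdkn1a 0, 2, 1 and 1 in the same library order; the other 8 members had 0. UMIs over-counted molecules. Spike-ins detected in 20% or fewer of the kept wells averaged 5.18 to 7.37 UMIs in a well that held them, against 1.04 to 1.05 if single molecules had been counted. A few UMIs of a rare member in a cell can thus come from a single molecule. The wells without cells do not measure RNA or reads passing between libraries at a shared barcode. Among kept cells with under 10 marker UMIs, those whose barcode held 100 or more marker UMIs in another library averaged 3.0 and 3.6 marker UMIs in the Mat KO libraries and 5.0 and 4.0 in the WT libraries, against 2.17 and 2.17 in the other such cells of the Mat KO libraries and 2.39 and 2.5 in those of the WT libraries. The mean was higher in all 4 libraries, and its part in the class of cells with at least 1 marker UMI was not tested.

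**Figure D2:**
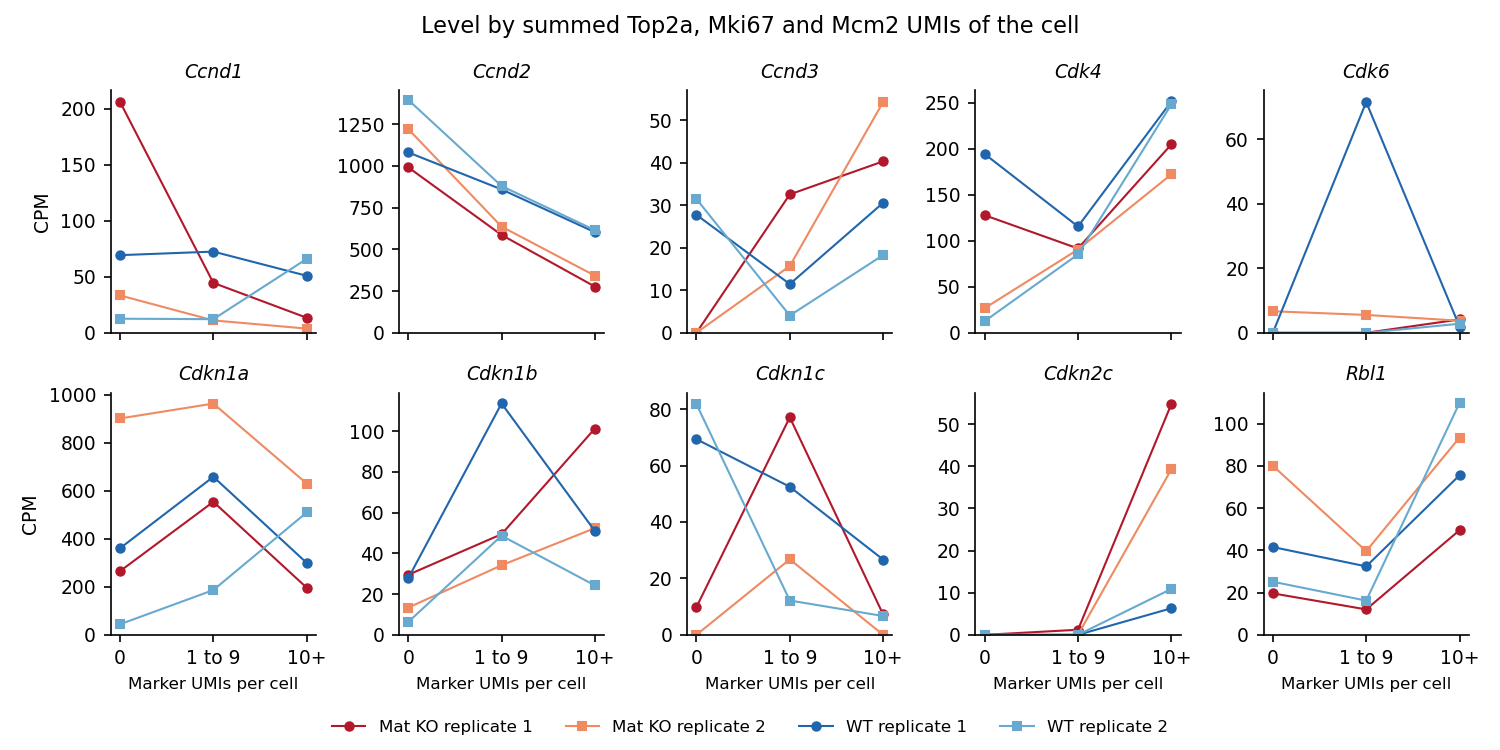
Level of each gene (CPM, axes starting at 0) in cells with 0, 1 to 9, and 10 or more summed Top2a, Mki67 and Mcm2 UMIs, with a line per library (Mat KO red and orange, WT blue). Ccnd2 is lower at each step in all 4 libraries, and Cdkn2c is close to 0 below 10 marker UMIs.

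The relation to cycling was examined next. Of the 188 cells, 23 had no marker UMI, 88 had 1 to 9 and 77 had 10 or more, the last group being 16 and 9 cells in the Mat KO libraries and 20 and 32 in the WT libraries. Ccnd2 was lower where markers were higher in each library. In Mat KO replicate 1 its level was 992, 586 and 277 CPM in cells with 0, 1 to 9, and 10 or more marker UMIs. In Mat KO replicate 2 the levels were 1221, 637 and 342 CPM. The WT libraries had the same order, with 1081, 859 and 603 CPM in replicate 1 and 1396, 880 and 615 CPM in replicate 2. The order was the same in all 4 libraries, and Ccnd2 UMIs were still present in 71 of the 77 cells with 10 or more marker UMIs. The share of all genes with such an order in all 4 libraries was not counted.

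Cells with at least 1 marker UMI were tested against cells with 0 on the 8 library sums, with library as a block. Of the 8 members that passed the filter on low counts, Ccnd2 alone was called: it was lower, with a log2 fold change of -1.06 (SE 0.28, edgeR quasi-likelihood test, Benjamini-Hochberg adjusted p = 0.0281 over 7809 genes). Over all genes, 0.627% were called and 0.0640% were called lower, and the median gene was at 0.51 (0.34 with RLE factors), so Ccnd2 lay further below the typical gene than its own value. The class of 0 marker UMIs held only 5 and 9 cells in the Mat KO libraries and 5 and 4 in the WT libraries. Leaving out any one library ended the call (adjusted p = 0.108 to 0.296), as did DESeq2 (adjusted p = 0.175), no filter on low counts (0.295) and a filter of 50 UMIs (0.0888). With every cell thinned to 8900 UMIs the log2 fold change was -0.63 (adjusted p = 0.147).

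A limit of 10 marker UMIs, and a limit of 0.1% of a cell's UMIs, were added after the data were seen and divide the cells less unevenly. Depth still differed between the classes at 0.1%. Median UMIs per cell at or above it were 55032 and 69919 in the Mat KO libraries and 89301 and 49939 in the WT libraries. Below it they were 28628.5 and 23625 in the Mat KO libraries and 43838 and 52854 in the WT libraries. The fit at 0.1% was not repeated on thinned cells. At 0.1%, 40 cells were above (14 and 4 in the Mat KO libraries, 9 and 13 in the WT libraries) and 148 below; 28 cells lay between 0.05% and 0.2%. In Mat KO replicate 1 Ccnd2 had 255 CPM in cells at or above 0.1%, against 605 CPM in the cells below it, and in Mat KO replicate 2 it had 185 against 693 CPM. In WT replicate 1 it had 135 CPM in cells at or above 0.1%, against 942 CPM below it, and in WT replicate 2 it had 405 against 799 CPM. The classes did not overlap: each of the 4 values above the limit was lower than each of the 4 below it. Among all genes tested, 15.9% were lower above the limit in 4 of 4 libraries. The share of all genes whose classes lay apart across libraries, in either direction, was not counted. The log2 fold change was -1.72 (SE 0.29, edgeR adjusted p = 0.00331), and the call held without any one library (adjusted p = 0.000524 to 0.031). Here 5.17% of 8361 genes were called, 3.54% higher and 1.63% lower. At the limit of 10 UMIs Ccnd2 was also lower (log2 fold change -1.0, SE 0.21, adjusted p = 0.00809), where 3.12% of 8513 genes were called, 2.41% higher and 0.717% lower. That call was lost without WT replicate 2 (adjusted p = 0.0537). On thinned cells, with the classes set before thinning, Ccnd2 was called lower at 10 UMIs (log2 fold change -0.92, SE 0.21, edgeR adjusted p = 0.00976). There 3.53% of 3517 genes were called, 2.50% higher and 1.02% lower.

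Other cell types moved with these classes. At the 0.1% limit 11 of 13 tested B-lymphoid markers were called higher and 1 called lower, where 3.54% of all genes were called higher and 1.63% lower. The summed B-lymphoid list took 0.171% to 0.696% of UMIs above the limit, against 0.0252% to 0.0354% below it, with all 15 of its genes detected. The long-term HSC list took 0.0525% to 0.131% of UMIs above the limit, against 0.235% to 0.282% below it, and 7 of its 15 tested genes were called lower. The granulocyte or monocyte list had 2 of 12 tested genes called lower, and its share overlapped between the classes (0.0526% to 3.93% above, 0.363% to 3.48% below). Within lineage-low cells Ccnd2 was still lower at the 0.1% limit (log2 fold change -1.57, SE 0.30, adjusted p = 0.00329). With cells of 0.5% or more B-lymphoid UMIs left out as well, it had 466 and 228 CPM above the limit in the Mat KO libraries and 71.3 and 377 CPM above it in the WT libraries, against 698 and 781 CPM below it in the Mat KO libraries and 971 and 836 CPM below it in the WT libraries. The log2 fold change there was -1.83 (SE 0.38, adjusted p = 0.000955), although Mat KO replicate 2 supplied a single cell above the limit. At 10 UMIs the same cells gave -0.76 (adjusted p = 0.0642). The part of the falling HSC markers in this difference was not tested.

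Ccnd2 was also low in cells with the granulocyte or monocyte programme. These had 57.6 and 121 CPM in the Mat KO libraries (10 and 3 cells) and 20.9 and 134 CPM in the WT libraries (2 and 3 cells), whereas lineage-low cells had 616 and 670 CPM in the Mat KO libraries and 739 and 746 CPM in the WT libraries. The granulocyte or monocyte values rested on 28 and 23 Ccnd2 UMIs in the Mat KO libraries and 2 and 22 in the WT libraries. The share of all genes that separate these groups of cells in the same way was not counted. The few cells of that programme were found by their UMIs and were not tested.

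Cdkn2c UMIs lay almost wholly in cells with many marker UMIs. Of its 119 UMIs, 118 were in cells with 10 or more marker UMIs, and 16 of the 17 cells that held it were such cells. Cells with 10 or more marker UMIs also held most UMIs of all genes: 6413684, against 3209411 in cells with 1 to 9 and 482758 in cells with 0. The marker UMIs of the 17 cells had a median of 328 (range 3 to 1016). Cdkn2c reached 23 UMIs in each of 2 granulocyte or monocyte cells of Mat KO replicate 1. At the 0.1% limit it had 64.3 and 62.8 CPM above the limit in the Mat KO libraries and 13.5 and 24.1 CPM above it in the WT libraries, against 0 and 0 CPM below it in the Mat KO libraries and 0 and 2.71 CPM below it in the WT libraries. Every library was higher above the limit. Cdkn2c entered the fit only through the cells above the limit, with no UMI below it in 3 libraries, so its fitted difference is not used. Of the 17 cells, 10 were lineage-low, 5 carried the granulocyte or monocyte programme and 2 the B-lymphoid one. Of the 10 lineage-low cells, 5 lay close under the lineage limit, with 0.669% to 0.934% of their UMIs in the B-lymphoid list, and held 40 of the 58 lineage-low Cdkn2c UMIs. With cells of 0.5% or more B-lymphoid UMIs left out, Cdkn2c had no UMI above the 0.1% limit in either Mat KO library and was in 1 cell above it in each WT library. The part of the B-lymphoid programme in the pattern of Cdkn2c was not tested. Thinned cells with a Cdkn2c UMI were 6 of 34 above the limit and 0 of 135 below it.

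Cdk4 and Rbl1 were higher in cycling-marker cells of every library without passing the test. Cdk4 had 204 and 239 CPM above the 0.1% limit in the Mat KO libraries and 263 and 269 CPM above it in the WT libraries, against 109 and 79.5 CPM below it in the Mat KO libraries and 179.9 and 203 CPM below it in the WT libraries. Rbl1 had 47.7 and 102 CPM above the limit in the Mat KO libraries and 94.8 and 213 CPM above it in the WT libraries, against 18.8 and 49.5 CPM below it in the Mat KO libraries and 45.9 and 45.1 CPM below it in the WT libraries. Within each library the cells above the limit were higher for both genes; across libraries the classes did not overlap for Cdk4, by a margin of 204 against 203 CPM, and overlapped for Rbl1. Their log2 fold changes were 0.85 (SE 0.31, adjusted p = 0.152) for Cdk4 and 1.42 (SE 0.45, adjusted p = 0.0987) for Rbl1. At the limit of 10 UMIs they were 1.21 (SE 0.33, adjusted p = 0.0524) and 1.53 (SE 0.52, adjusted p = 0.153), again higher in 4 of 4 libraries. Among all genes tested, 14.1% were higher in 4 of 4 libraries at 0.1% and 14.0% at 10 UMIs. Among members these were Cdk4 and Rbl1 at both limits, with Cdkn1b at 0.1% and Ccnd3 at 10 UMIs. Cdkn2c is left out here. It was too sparse for the filter at 10 UMIs, and at 0.1% it entered only through the cells above the limit.

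The CIP/KIP inhibitors and Ccnd1 gave no call. Cdkn1c had 7.15 and 0 CPM above the 0.1% limit in the Mat KO libraries and 33.3 and 4.83 CPM above it in the WT libraries, against 62.2 and 20.2 CPM below it in the Mat KO libraries and 37.3 and 13.5 CPM below it in the WT libraries. It was lower in 4 of 4 libraries at both limits, but the classes overlapped and the log2 fold changes of -2.01 (SE 1.01, adjusted p = 0.311) and, at 10 UMIs, -2.77 (SE 0.85, adjusted p = 0.104) did not pass; 15.9% and 8.32% of all genes were lower in 4 of 4 libraries at these limits. Ccnd1 was lower in 4 of 4 libraries at 0.1% (log2 fold change -2.27, SE 0.80, adjusted p = 0.135) and in 3 of 4 at 10 UMIs (-0.68, SE 0.80). Cdkn1a had 216 and 365 CPM above the 0.1% limit in the Mat KO libraries and 341 and 494 CPM above it in the WT libraries, against 467 and 972 CPM below it in the Mat KO libraries and 453 and 448 CPM below it in the WT libraries. WT replicate 2 alone went up: its log2 fold change over libraries was -0.70 (SE 0.28, adjusted p = 0.19), and at 10 UMIs it was -0.49 (SE 0.39), passing there once WT replicate 2 was left out (-1.12, adjusted p = 0.0365). Against 0 marker UMIs the sign of Cdkn1a was the other way (0.84, SE 0.39, adjusted p = 0.581). Cdkn1b and Ccnd3 did not pass at any limit, and Cdk6 was too sparse to be tested.

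**Figure D3:**
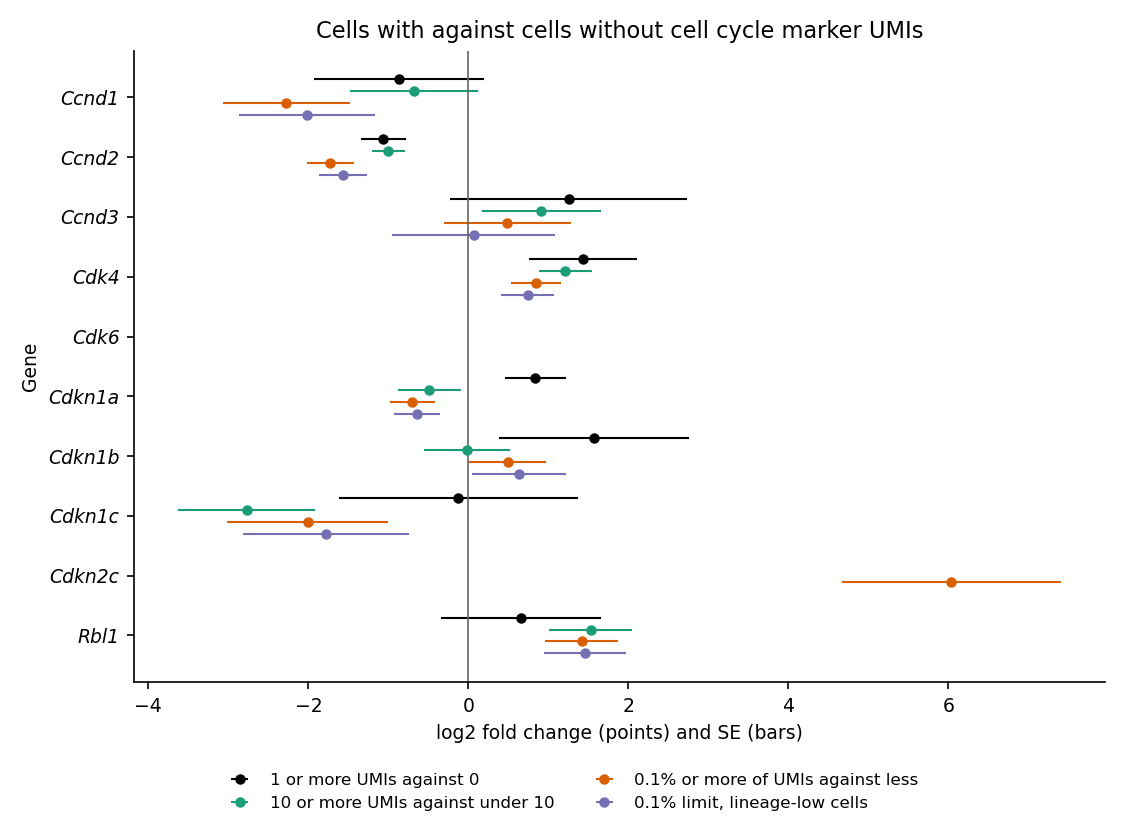
Log2 fold change of each gene between cells with and cells without marker UMIs at 3 limits, and at the 0.1% limit in lineage-low cells; points are edgeR estimates over 4 libraries and bars are standard errors. Ccnd2 lies left of 0 in each, from -1.0 to -1.72, a gene too sparse for the filter has no point, and that of Cdkn2c depends on the prior count, since 3 libraries had no UMI below the limit.

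Within libraries, the Spearman correlation of Ccnd2 with marker UMIs over cells depended on depth handling, and its sign changed in all but Mat KO replicate 1. On raw UMIs it was -0.14 and 0.23 in the Mat KO libraries and 0.12 and 0.29 in the WT libraries. After thinning it was -0.36 and -0.22 in the Mat KO libraries (38 and 41 cells) and -0.43 and -0.38 in the WT libraries (46 and 44 cells). Marker UMIs themselves correlated with a cell's depth at 0.47 and 0.48 in the Mat KO libraries and 0.67 and 0.68 in the WT libraries, so raw UMIs carry depth as well. Thinned Cdk4 correlated at 0.30 and 0.37 in the Mat KO libraries and 0.29 and 0.52 in the WT libraries, and thinned Rbl1 at 0.31 and 0.19 in the Mat KO libraries and 0.20 and 0.41 in the WT libraries. These values describe cells that share library and depth.

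**Figure D4:**
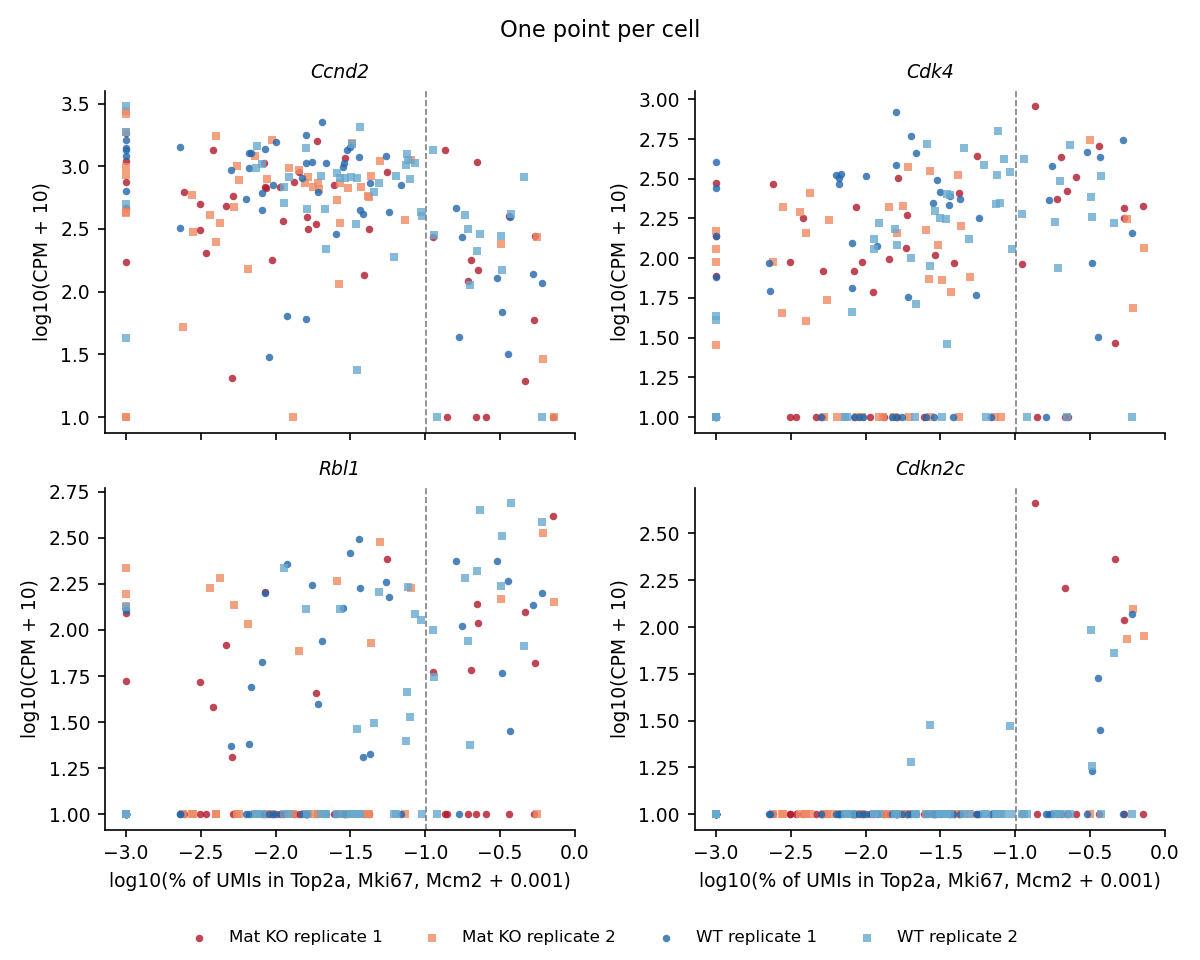
Each point is a cell: the share of its UMIs in Top2a, Mki67 and Mcm2 (log10 of percent plus 0.001) against its Ccnd2, Cdk4, Rbl1 or Cdkn2c level (log10 of CPM plus 10); the dashed line marks 0.1%, and points at 1.0 had no UMI of the gene. Cells right of the line reach lower Ccnd2 levels, and 14 of the 17 cells with Cdkn2c are there.

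A fixed list of other genes around the G1 to S pathway was examined as well. It also holds genes that act in G2 and mitosis, such as Cdk1, Ccnb1 and Ccnb2, so its calls do not single out the G1 to S step. At the 0.1% limit 45 of 53 listed genes were tested, and 12 were called higher and none lower, where 3.54% of all genes were called higher and 1.63% lower. They were the kinase gene Cdk1 (log2 fold change 3.68), the A and B cyclins Ccna2 (4.38), Ccnb1 (4.29) and Ccnb2 (4.70), and the kinase subunits Cks1b (2.85) and Cks2 (2.26). Also called were the phosphatase genes Cdkn3 (4.66) and Cdc25b (4.14), the transcription factors E2f2 (3.59), E2f3 (2.01) and E2f8 (2.96), and the replication licensing gene Cdc6 (3.72). The uncalled genes of smallest p were Cdt1 (2.48), Rbbp4 (1.15), Cdkn2d (1.15) and Tfdp1 (1.23). The list's median was 1.07, against -0.14 over all genes tested. At 10 UMIs 8 of 46 were called higher and none lower, all 8 among those 12 genes: Cdk1, Ccna2, Ccnb1, Ccnb2, Cks1b, Cks2, Cdkn3 and E2f2. Over all genes 2.41% were called higher there and 0.717% lower. Against 0 marker UMIs 2 of 42 were called higher (Ccnb2 at 4.55 and Cdk1 at 4.66), the next by p being Ccnb1, Ccna2, Cdc25b and Cks2. Of the p53 targets other than Cdkn1a, 9 of 18 were tested at 0.1% and none was called by edgeR, 4 having an unadjusted p under 0.05: Gtse1 (4.06), Btg2 (-0.65), Ccng1 (-1.83) and Plk2 (-1.67).

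The study's own comparison, Mat KO against WT libraries, gave no call among the members. Of 10 tested, 0 passed edgeR at an adjusted p of 0.05, 1 had an unadjusted p under 0.05 and 0 passed with DESeq2; over all 10663 genes 0.0750% were called. Cdk4 had the smallest p: it averaged 130.4 ± 29.2 CPM in the Mat KO libraries and 215 ± 13.4 CPM in the WT libraries (SD, n = 2 libraries each), a log2 fold change of -0.69 (SE 0.30, adjusted p = 0.614). Ccnd2 averaged 524 ± 104 CPM in the Mat KO libraries and 686 ± 17.6 CPM in the WT libraries, a log2 fold change of -0.35 (SE 0.24, adjusted p = 0.767). Both were lower in both Mat KO libraries, within an error that the test did not separate from 0. Ccnd1 was at -1.26 (SE 0.61, adjusted p = 0.667), Rbl1 at -0.77 (SE 0.48, adjusted p = 0.744) and Cdk6 at -1.87 (SE 1.36, adjusted p = 0.791). Single libraries moved these uncalled values: leaving out each in turn gave -2.41 to -0.65 for Ccnd1, -1.32 to -0.38 for Rbl1 and -0.60 to -0.16 for Ccnd2.

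On the other side lay Cdkn2c at 1.58 (SE 0.97, adjusted p = 0.740; 0.84 to 2.31 without each library), Ccnd3 at 0.56 (SE 0.65), Cdkn1a at 0.50 (SE 0.35, adjusted p = 0.783), Cdkn1b at 0.26 (SE 0.57) and Cdkn1c at 0.24 (SE 0.77). For 6 of the 10 members (Cdkn2c, Ccnd1, Ccnd2, Ccnd3, Cdk4 and Rbl1) the CPM ranges of Mat KO and WT libraries were apart, as they were for 39.1% of all genes. Cdkn1a rested on single libraries: without Mat KO replicate 1 it was called higher (1.00, SE 0.22, adjusted p = 0.0288), and without Mat KO replicate 2 it was at -0.30 (adjusted p = 0.808). The libraries of 1 kind left alone in such a fit are assumed to vary like the others.

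Cycling-marker cells were unequally spread: cells with 10 or more marker UMIs made up 36.4% and 18.8% of the Mat KO libraries, against 41.7% and 66.7% of the WT libraries, at the lower Mat KO depth. Cells at or above the 0.1% limit made up 31.8% and 8.33% of the Mat KO libraries, against 18.8% and 27.1% of the WT libraries, which overlap. Of 20 S phase genes 19 had a lower estimate in the Mat KO libraries, with a median log2 fold change of -0.86, where 50.6% of all genes tested had a lower estimate. Of the S phase genes edgeR called none and DESeq2 called 2 lower, and DESeq2 called 0.206% of all genes lower. G2/M genes did not go the same way: 13 of 20 had a higher estimate in the Mat KO libraries, with a median of 0.21 and none called by either tool. The S phase list includes Mcm2, and the G2/M list includes Top2a and Mki67, the genes that define the marker classes. Among cells with under 10 marker UMIs the genotype log2 fold change of Cdk4 was -0.02 (SE 0.55) and that of Rbl1 0.10 (SE 0.99). Among cells with 10 or more it was -0.42 (SE 0.34) for Cdk4, -0.99 (SE 0.29, adjusted p = 0.606) for Ccnd2 and -2.70 (SE 0.92, adjusted p = 0.616) for Ccnd1. No member was called in either class. In lineage-low cells the genotype log2 fold change was -0.18 (SE 0.19) for Ccnd2, -0.72 (SE 0.29) for Cdk4 and 0.47 (SE 0.26) for Cdkn1a, none of them called. Whether Mat KO replicate 1 still stood apart there by granulocyte or monocyte genes was not measured. Over all its kept cells the median share of that list was 0.522%, against 0.0975% to 0.136% in the other libraries.

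**Figure D5:**
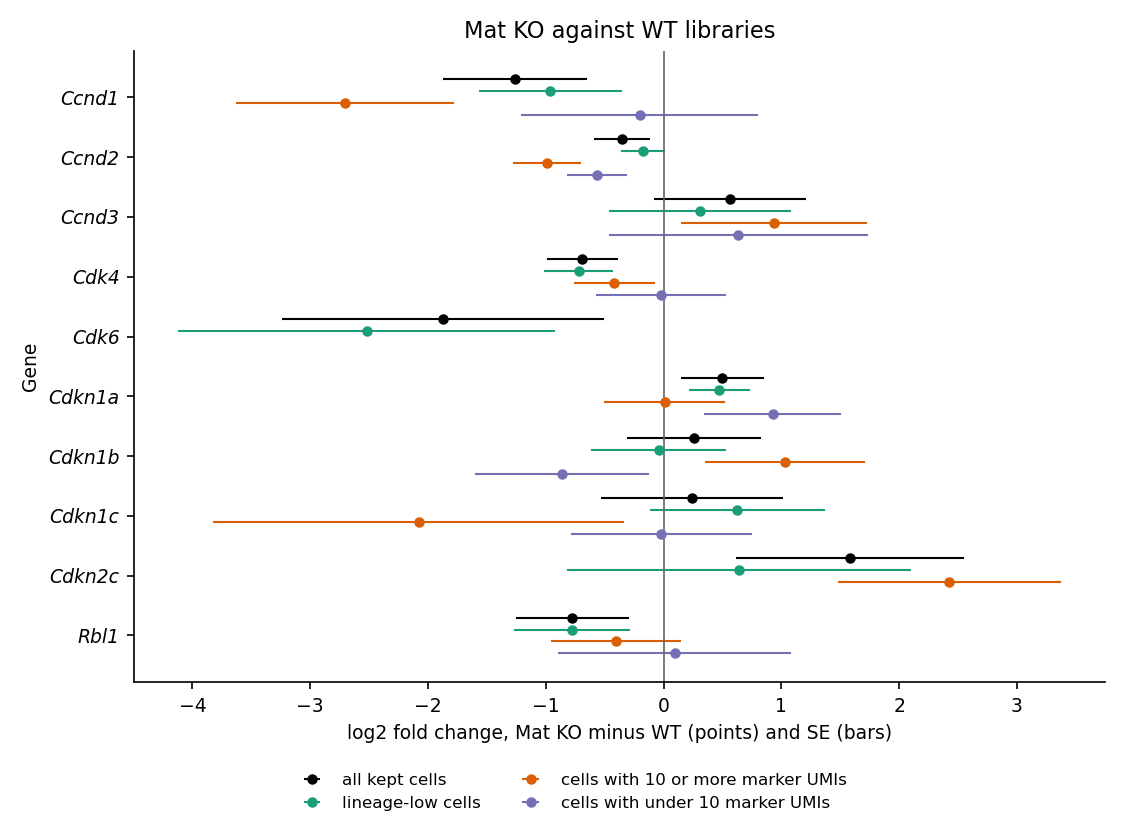
Log2 fold change of each gene between Mat KO and WT libraries (Mat KO minus WT) in all kept cells, lineage-low cells, and cells with 10 or more or with under 10 marker UMIs; points are edgeR estimates and bars are standard errors over 2 libraries per genotype. In all kept cells 5 genes lie left of 0 and 5 right of it, and none was called.

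Whether the relation to cycling itself differed between genotypes was tested as an interaction. None of the 9 members tested was called (edgeR adjusted p of 1 for each; 1 had an unadjusted p under 0.05, and DESeq2 called 0), where 0.0208% of 9630 genes were. For Ccnd2 the interaction was -0.44 (SE 0.54) in log2 units, and at the 0.1% limit 0.24 (SE 0.51). At 10 UMIs Cdkn1b was higher in cycling-marker cells of both Mat KO libraries (101 against 47.2 CPM in replicate 1, and 52.4 against 31.6 CPM in replicate 2) and lower in those of both WT libraries (50.9 against 108 CPM in replicate 1, and 24.2 against 32.0 CPM in replicate 2). The interaction of Cdkn1b there was 1.68 (SE 1.06, adjusted p = 1). At 0.1% Cdkn1b was higher in cycling-marker cells of all 4 libraries, with an interaction of 0.17 (SE 1.15). The share of all genes with opposite directions by genotype at 10 UMIs was not counted. The member with an unadjusted p under 0.05 was Cdkn1a, with an uncalled interaction of -1.665 (SE 0.76). Its interaction was -1.39 (SE 0.59) at 10 UMIs and -1.20 (SE 0.46) at 0.1%, again uncalled.

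The shares of cells with a UMI were compared after thinning, by an exact two-sided permutation test whose smallest possible p is 0.333. Ccnd1 was found in 18.4% and 7.32% of thinned Mat KO cells, against 28.3% and 29.5% of thinned WT cells, without overlap (exact p = 0.333; 23.1% of Mat KO and 40.6% of WT cells on average without thinning). Ccnd3 and Cdkn2c were at the same p, each with a larger share of thinned Mat KO cells, but on few cells. Thinned Cdkn2c was in 3 and 1 Mat KO cells, against 1 and 1 WT cells. Thinned Ccnd3 was in 7 and 7 Mat KO cells, against 7 and 4 WT cells. Without thinning the mean shares went the other way: 7.67% of Mat KO and 10.4% of WT cells for Cdkn2c, and 34.8% and 42.7% for Ccnd3. The smallest Benjamini-Hochberg value over the 10 members was 1.0. Ccnd2 was in 78.9% and 90.2% of thinned Mat KO cells, against 87.0% and 90.9% of thinned WT cells.

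Of the 53 listed pathway genes 50 were tested between genotypes and none was called by edgeR or DESeq2, 25 estimates being positive and 25 negative (median -0.08, against -0.01 over all genes); 4 had an unadjusted p under 0.05. The genes of smallest p were Cdc25a (-1.34), Ccna2 (1.18), Cdkn3 (1.41) and E2f2 (1.09). Of the p53 targets 12 of 18 were tested and none was called, 1 having an unadjusted p under 0.05. Those of smallest p were Bax (-1.17), Btg2 (-0.37), Perp (1.78) and Gtse1 (0.95).

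The genes most like the members over the 169 thinned cells were sought among 1139 genes seen in most of them, with library means removed. Cdkn1a was most like Nr4a1 (Spearman 0.44), an immediate early gene of the nuclear receptor family, and Skil (0.43), a SMAD co-repressor. For Ccnd2 and Cdk4 no gene reached 0.4: the highest values were 0.40 for Lmo2 with Ccnd2, which lies just below that limit, and 0.34 for Ppia with Cdk4. The other members were in too few thinned cells.

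In mm10 the members lie at Ccnd1 chr7:144929931-144939925 (minus), Ccnd2 chr6:127125162-127152193 (minus), Ccnd3 chr17:47505051-47599691 (plus), Cdk4 chr10:127063534-127067920 (plus), Cdk6 chr5:3341485-3531008 (plus), Cdkn1a chr17:29090976-29100727 (plus), Cdkn1b chr6:134920401-134925513 (plus), Cdkn1c chr7:143458339-143461050 (minus), Cdkn2c chr4:109660876-109667189 (minus) and Rbl1 chr2:157145893-157204534 (minus), all protein-coding genes. Except for Cdkn1b and Cdkn2c, each overlaps an annotated gene on the opposite strand, and the sources used here do not say whether counting used strand. Of these partners, Tspan31, which overlaps Cdk4, had 62 and 30 UMIs in the Mat KO libraries, against 114 and 56 in the WT libraries. Bysl, which overlaps Ccnd3, had 49 and 12 UMIs in the Mat KO libraries, against 55 and 96 in the WT libraries.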

How the data were processed

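Single HSC in 2 Mat KO and 2 WT libraries were profiled with a modified STRT-seq protocol, whose oligo-dT primers add the barcode of a cell and a UMI, per the labels' protocols. The authors deposited unnormalized UMI counts for each gene and barcode. TopHat2 2.0.12, HTSeq and mm10 are listed, with no roles, per the submitters' processing notes. Of 24506 rows, 95 are spike-in or marker rows and entered neither library sizes nor tests. No doublet caller was run on cells picked singly.

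The 188 barcodes in which 1000 or more genes were detected were kept, and counts were summed per library or per library and cell class. The test was edgeR 4.0.16 (R 4.3.3), quasi-likelihood, TMM, filterByExpr, with Benjamini-Hochberg adjustment over all genes tested at 0.05, checked on simulated data. DESeq2 1.42.0 and limma 3.58.1 gave alternatives. For shares, cells were thinned to 8900 UMIs, the 10th percentile of kept cells, or 5000. Total UMIs per library limit precision.

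The members, the lists of pathway genes, p53 targets and cell type markers, and the alternatives were chosen with earlier results of these data known. All members are named; of a list, every called gene and the 4 uncalled genes of smallest p (for cell classes, these 4 in full at the 0.1% limit). Coordinates are from GENCODE vM21 (mm10), promoters from RefSeq (GRCm38.p6); 7 of the members have a promoter entry used here.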

Additional observations from a re-analysis of the deposited data

How the results depend on the processing

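No member was called between genotypes in the 17 alternatives, except Cdkn1a without Mat KO replicate 1 (log2 fold change 1.00). Leaving out each library in turn gave -0.30 to 1.00 for Cdkn1a, -0.31 to 1.17 for Cdkn1b and -0.48 to 1.34 for Cdkn1c. Cdkn1b also turned to -0.04 in lineage-low cells, -0.86 in cells under 10 marker UMIs and -0.35 in lineage-low cells under 0.5% B-lymphoid UMIs. Cdkn1c turned to -0.71 in thinned cells, -0.08 without each gene's leading cell, -0.61 on mean CPM with limma, -0.02 in cells under 10 marker UMIs and -2.08 in those with 10 or more. Rbl1 turned to 0.10 in cells under 10 marker UMIs. The count of genes called between genotypes was 8, and 120 with DESeq2, 149 with no gene filter, 15 with the 50 UMI filter, 17 to 123 without each library, 5 in cells with at least 2000 genes, 3 in thinned cells, 0 without leading cells, 2 with limma, 1 in cells under 10 marker UMIs and 0 in those with 10 or more. With the replicate number as a block it was 109; same-numbered libraries deviated with a correlation of -0.017, so the numbers were not taken as pairs, and the block called no member.

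Between the marker classes, the count of genes called was 49 for cells with at least 1 marker UMI against cells with 0. It was 14 to 50 without each library, 19 in lineage-low cells, 19 without leading cells, 125 with limma and 122 for 10 or more against 0 UMIs. It was 266 at the 10 UMI limit, 203 there in lineage-low cells, 45 with B-lymphoid cells out as well, 124 in thinned cells, 270 without leading cells, and 205, 169, 224 and 189 without Mat KO replicate 1, Mat KO replicate 2, WT replicate 1 and WT replicate 2; at the 0.1% limit it was 432, 410 in lineage-low cells, 151 with B-lymphoid cells out as well, and 204, 238, 209 and 454 without the same libraries in turn. Ccnd2 was negative in all 31 alternatives (-0.91 to -2.01 without each library, over the 3 limits). Cdkn1a, at 0.84, turned to -0.49 (10 UMIs), -0.45 (lineage-low), -0.35 (B-lymphoid cells out), -0.11 (thinned) and -0.45 (leading cells out), and at 0.1% to -0.70, -0.64 (lineage-low) and -0.46 (B-lymphoid cells out), with 0.21 to 1.30 without each library. In that order of libraries left out it was -0.11, -0.40, -0.20 and -1.12 at 10 UMIs and -0.56, -0.44, -0.82 and -1.01 at 0.1%. Cdkn1b turned to -0.02 at 10 UMIs, -0.15 with B-lymphoid cells out, -0.02 without leading cells and -0.30 at 0.1% with B-lymphoid cells out (1.48 to 1.64 without each library, and at 10 UMIs -0.39 and -0.25 without Mat KO replicates 1 and 2), and Ccnd3 in that last setting to -1.33. Cdkn1c turned to 0.04 with no filter, 0.01 with limma and 0.38 without Mcm2 (-0.97 to 1.13 without each library). The interaction called 2 genes, 0 with DESeq2, 0 in lineage-low cells, 9 at 10 UMIs and 7 at 0.1%. The cause of these shifts was not tested.

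For thinned shares (percentage points, Mat KO minus WT), Cdkn1b turned to -2.36 and Ccnd2 to 1.12 in lineage-low cells, and Cdkn2c to -2.75 and Ccnd3 to -7.87 without thinning. Without each library the ranges were -2.89 to 8.99 (Cdkn1b), -9.33 to 3.42 (Cdkn1c), -9.98 to 1.30 (Ccnd2), -9.03 to 2.72 (Cdk4) and -7.11 to 3.75 (Cdk6). Sparse members (Cdk6, Cdkn2c) are limited by depth.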
